A study of Mus musculus with 288 samples.

Results

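The daily rhythms of gene expression in mouse liver were set against those in mouse white adipose tissue. The 24 arrays labelled liver and the 24 labelled white adipose were taken from an atlas of 288 arrays of 12 organs and matched by the circadian time (CT) in their titles. All animals were C57/BL6 mice, kept for 1 week on a 12 h light, 12 h dark schedule in light-tight boxes and from then on in constant darkness. Each array held RNA pooled from 3 mice, and arrays followed each other every 2 h from CT18 to CT64, so that either tissue was sampled over 2 days with 1 array per time. The labels give neither the sex nor the age of the mice, nor the depot of the white adipose tissue. The measure was the log2 of the deposited probe set intensity for 19938 genes, of which 246 belonged to 15 lists of lipid and glucose metabolism and its regulators. With 1 pool per time, the spread is that of pools around a fitted wave. It holds differences between pools together with any departure of the time course from that wave, and these cannot be told apart.

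The circadian clock is a loop in which the activators CLOCK and BMAL1 (gene Arntl) drive their own repressors, the PER and CRY proteins, through E-boxes in promoters. A second arm, the REV-ERB repressors (Nr1d1, Nr1d2) and the ROR activators, acts on ROR elements, and the output factors DBP, TEF and HLF with their antagonist NFIL3 act on D-boxes. In liver, fatty acids, cholesterol, glucose and glycogen are made in phase with feeding and fasting, while white adipose stores triglyceride after meals and releases fatty acids during fasting. Many of the enzymes concerned are made in both tissues, so their rhythms can be compared gene by gene.

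Both tissues carried the genes that define them. The mean of 10 hepatocyte markers lay between 13.57 and 13.65 on the liver arrays, and the mean of 6 adipocyte markers between 12.12 and 12.53 on the white adipose arrays (log2 intensity), against 6.27 to 6.46 for the adipocyte markers in liver. White adipose also held RNA of other organs, in amounts that changed from array to array. Of the adipocyte markers 3 (Plin1, Cidec and Fabp4) are also members of the lipid lists. The mean of 5 epididymis markers, genes of the sperm duct, ran from 5.41 (CT46) to 12.15 (CT64) in white adipose with a median of 6.17, and stood more than 1 log2 unit above that median on 10 arrays (CT28, CT32, CT36, CT38, CT50, CT52, CT54, CT58, CT60 and CT64). In liver the same mean stayed between 5.43 and 5.63, with all 5 markers below the median gene, whereas none of the 5 was below it in white adipose. The hepatocyte mean in white adipose ran from 7.60 (CT56) to 10.59 (CT30), and a 24 h wave fitted to it had a 2.52-fold peak to trough at CT21.7, while that of the epididymis mean was 12.8-fold at CT8.57. Single white adipose arrays stood high in pancreas markers (8.37 at CT26), kidney tubule markers (8.07 at CT32) and testis markers (7.73 at CT30). In bulk tissue fewer cells of a type and less RNA per cell cannot be told apart. Values with the epididymis and hepatocyte means together as covariates are given below for named genes whose calls they move across the threshold. Values with either mean alone are given for some genes only.

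**Figure D1:**
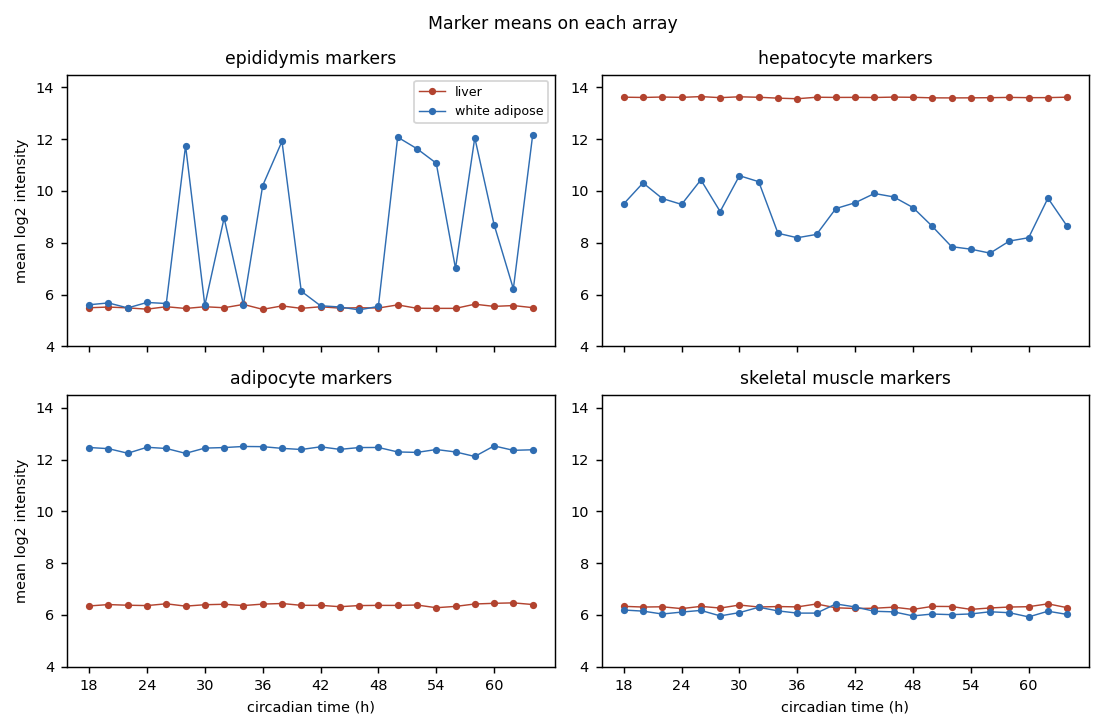
Mean log2 intensity of 4 marker lists against circadian time (h), 1 point per array, with liver in red and white adipose in blue. Epididymis markers reach 12.15 and hepatocyte markers 10.59 on white adipose arrays, while both tissues stay flat in skeletal muscle markers and each holds its own defining markers at a steady level.

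Far more genes were called rhythmic in liver than in white adipose when each tissue was fitted with its own spread. A 24 h wave, described by a cosine and a sine coefficient, was called in 5343 genes of liver (26.8%) and 966 of white adipose (4.85%), with an adjusted p under 0.05 in limma's moderated F test. Both tissues called 517 genes (2.59%), and the coefficients themselves differed between the tissues in 2255 genes (11.3%). The scatter around the waves was larger in white adipose, with a median residual SD of 0.0994 in liver and 0.134 in white adipose (log2), so a missing call in white adipose is no measure of flatness. With the spread shared over all 288 arrays, limma called 6090 genes in liver and 4470 in white adipose. Since calls depend on the spread, a gene is called specific to a tissue only where the coefficients differed as well.

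By that rule 1523 genes (7.64%) were rhythmic in liver only and 280 (1.4%) in white adipose only. These names stand for the calls: the fitted wave was larger in liver in 1446 of the 1523 and larger in white adipose in 278 of the 280. Level bears on them too, since 308 of the 1523 liver-only genes lay below the median gene in white adipose (mean log2 6.96) and 158 of the 280 white adipose-only genes below that in liver (6.93), where a flat wave and a lack of signal cannot be told apart. Of the 517 genes called in both, 179 (0.898%) were shifted, with coefficients that differed and peaks at least 3 h apart. In 57 (0.286%) the coefficients differed and the peaks lay within 3 h, a class named same time and another size. That name stands for the rule, since the test took timing and size together and size alone was not tested. In the other 281 (1.41%) no difference was detected. A further 3303 genes (16.6%) were called in liver alone and 169 (0.848%) in white adipose alone without a passing difference, and these belong to no class of specific genes. Shifted genes had a median gap of 5.68 h, and 40 of the 179 peaked at least 9 h apart. Without the 10 white adipose arrays high in epididymis markers, which leaves 14 arrays in that tissue, white adipose had 114 rhythmic genes, and the numbers were 14 shifted, 42 white adipose-only and 42 rhythmic in both with no difference detected. With the epididymis and hepatocyte means as covariates, white adipose had 1028 rhythmic genes, the difference passed in 2339, and 113 of the 179 shifted, 1159 of the 1523 liver-only and 188 of the 280 white adipose-only genes kept their class.

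Members of the lists of lipid and glucose metabolism were called more often than genes as a whole in either tissue. Of the 246 members, 149 were rhythmic in liver (60.6%), 42 in white adipose (17.1%) and 31 in both, and 65 differed between the tissues (26.4%). Bright genes were called more often in general, and most members are bright. Among the 11281 genes above the median gene in at least one of the tissues, 47.1% were rhythmic in liver, 9.65% in white adipose and 21.7% differed, against 66.5%, 19.5% and 33.1% of the 236 list members among them. The 246 members held 17 shifted genes (6.91%, against 0.898% of all genes) and 3 with the same time and another size (1.22%, against 0.286%). A further 35 were liver-only (14.2%, against 7.64%) and 6 white adipose-only (2.44%, against 1.4%). Another 11 were rhythmic in both with no difference detected (4.47%, against 1.41%). Among the bright genes, 7.63% of the list members were shifted, against 2.07% of all 11281. There the shares lay closer together for liver-only (18.22%, against 15.02%) and white adipose-only (2.97%, against 2.43%). With both marker covariates 11 of the 17 kept the shifted class, all 3 of the same time, 25 of the 35 liver-only, all 6 white adipose-only and 7 of the 11 with no difference detected. Without the 10 white adipose arrays high in epididymis markers no list member was called shifted by limma. Their median peak-to-trough fold was 1.17 in liver and 1.16 in white adipose, against 1.09 in either tissue over all genes.

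**Figure D2:**
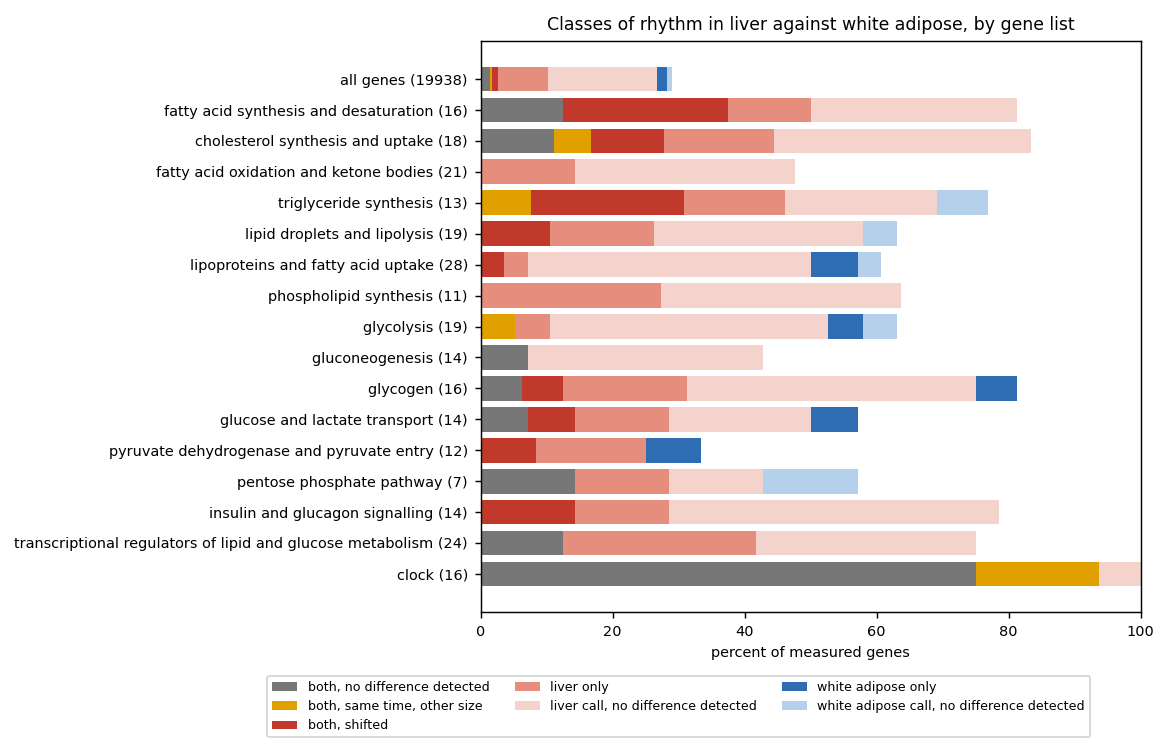
Share of measured genes in each class of rhythm (percent, stacked bars), for all genes, 15 lists and the clock list, with the number measured in brackets. The clock list has 12 of 16 genes rhythmic in both tissues with no difference detected, and fatty acid synthesis has 4 of 16 shifted. Fatty acid oxidation (21 genes) and phospholipid synthesis (11 genes) have no member called in white adipose, where 4.85% of all genes were called.

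Among these sets of genes the clock list shared its timing most closely. Over the 16 clock genes, the cosine coefficients of liver and white adipose correlated with r = 0.964 and the sine coefficients with r = 0.977, and all 16 peaked within 3 h of each other. Over the 517 genes rhythmic in both the corresponding r was 0.671 and 0.679, with 60.2% of peaks within 3 h. Over the 31 list members rhythmic in both it was 0.548 and 0.726, with 45.2% of peaks within 3 h. Most genes of the wider sets were not called in both tissues. There r was 0.285 and 0.406 over all 246 list members, and 0.182 and 0.101 over all 19938 genes. These are correlations across genes, which share arrays and are not independent replicates, and they are descriptions only. The wide scatter away from the diagonal among shifted genes can be seen in the plot of peak times.

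**Figure D3:**
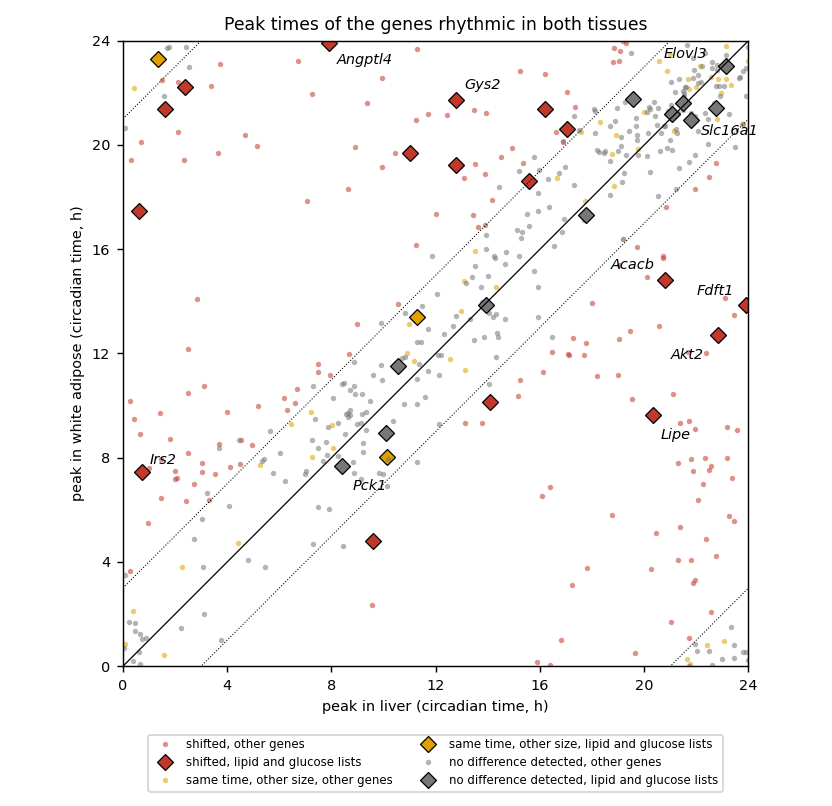
Peak time in liver (horizontal) against peak time in white adipose (vertical), both in circadian time (h), for the 517 genes rhythmic in both tissues. Diamonds are members of the lipid and glucose lists, small points are other genes, the solid line marks equal peaks and the dotted lines 3 h on either side; Elovl3 and Pck1 lie near the line, and Lipe, Fdft1 and Akt2 over 10 h from it.

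All 16 measured clock genes were rhythmic in liver and 15 in white adipose, Bhlhe40 being the exception, and 12 were rhythmic in both with no detected difference. Arntl, which encodes the activator BMAL1, ran from 5.90 (CT32) to 9.47 (CT22), median 8.58, in liver, and from 5.70 (CT34) to 8.91 (CT24), median 7.66, in white adipose. It was high from CT20 to CT26 and from CT44 to CT50 and low from CT32 to CT36 and from CT56 to CT60 in both tissues, whose ranges overlap. Its wave was 12.1-fold in liver (95% interval 8.92 to 16.5), with a peak at CT21.7, and 8.15-fold in white adipose (interval 6.67 to 9.96), with a peak at CT22.5. The limma adjusted p for the difference was 0.0431, or 0.0684 with both marker covariates, 0.136 after quantile normalization of the 48 arrays and 0.268 without the 10 arrays high in epididymis markers. Nr1d1, the REV-ERB alpha repressor of Arntl, ran from 7.20 (CT46) to 11.99 (CT52), median 9.86, in liver, and from 7.58 (CT20) to 11.59 (CT30), median 10.24, in white adipose. It stood above its median in both tissues from CT32 to CT36 and from CT56 to CT60, when Arntl was low, and the ranges overlap. Its wave was 18.4-fold at CT6.99 in liver and 14.3-fold at CT7.39 in white adipose. The difference had an adjusted p of 0.612. Dbp, an activator at D-boxes, had a wave of 13.7-fold at CT9.48 in liver and 9.88-fold at CT10.2 in white adipose. Per2, a repressor, had 4.40-fold at CT14.2 in liver and 3.21-fold at CT13.4 in white adipose, and no difference was detected in Dbp (adjusted p 0.210) or Per2 (0.198), though both passed with the spread shared over all 288 arrays (0.0204 and 0.0170). Clock, the partner of BMAL1, had 2.13-fold at CT22.6 in liver and 1.90-fold at CT22.9 in white adipose, and Nr1d2, the second REV-ERB, 4.85-fold at CT9.19 in liver and 5.65-fold at CT9.66 in white adipose. The difference of Nr1d2 passed after quantile normalization (adjusted p 0.0317). Of the other repressors, Per1 had 2.84-fold at CT11.3 in liver and 2.22-fold at CT10.0 in white adipose, Per3 5.02-fold at CT11.7 in liver and 4.02-fold at CT11.3 in white adipose and Cry2 1.48-fold at CT13.5 in liver and 1.25-fold at CT15.4 in white adipose, all without a detected difference. Tef, a D-box activator, had 3.10-fold at CT11.4 in liver and 2.94-fold at CT11.6 in white adipose. The E-box repressors Bhlhe40 and Bhlhe41 had 1.72 and 2.81-fold in liver and 1.98 and 3.68-fold in white adipose, and with both marker covariates neither was called in white adipose (adjusted p 0.455 and 0.0721).

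Arntl, Cry1 and Hlf peaked within 3 h in the tissues, and their coefficients differed, in a test that takes timing and size together. Cry1, a repressor of CLOCK and BMAL1, ran from 7.34 (CT52) to 9.47 (CT20), median 8.5, in liver, and from 6.73 (CT28) to 8.03 (CT18), median 7.48, in white adipose. The liver arrays swung further at the same hours and the ranges overlap. Its wave was 3.72-fold in liver (95% interval 3.18 to 4.37), with a peak at CT18.8, and 1.95-fold in white adipose (interval 1.67 to 2.28), with a peak at CT18.4. The difference had an adjusted p of 0.000151, which became 0.218 after quantile normalization of the 48 arrays. Hlf, which encodes a D-box activator, ran from 8.82 (CT50) to 9.68 (CT32), median 9.38, in liver, and from 6.77 (CT26) to 8.19 (CT38), median 7.53, in white adipose. Every liver array stood above every white adipose array. Its wave was the smaller one in liver, at 1.49-fold at CT12.5 in liver and 2.34-fold at CT11.8 in white adipose (adjusted p 0.000108). Levels are compared between tissues only as a description, since the deposited values appear to have been normalized within each tissue.

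Some promoters of clock genes carry the letters through which the loop is known to act, and 2 are shown, each before a gene that was rhythmic in both tissues with no difference detected. Both come from the RefSeq table of build GRCm38.p6, which held a promoter for 15563 measured genes, and run 5′ to 3′ over the 250 bases before the start on the minus strand. Ciart, a repressor of CLOCK and BMAL1, lies on chromosome 3 and its window (chr3:95882229-95882478) holds 3 E-boxes (CACGTG, in capitals) that begin 116, 58 and 44 bases before the start. Its wave was 10.7-fold at CT10.8 in liver and 6.11-fold at CT10.1 in white adipose, and its difference passed with the mean of its probe sets (adjusted p 0.0132) and with the spread shared over all 288 arrays (0.0339). Nfil3, the D-box repressor, lies on chromosome 13 and its window (chr13:52981040-52981289) holds the ROR element core (TAGGTCA on the other strand, in capitals). Its wave was 4.09-fold at CT21.1 in liver and 3.05-fold at CT19.8 in white adipose, and its difference passed with that shared spread too (adjusted p 0.0352).
Ciart: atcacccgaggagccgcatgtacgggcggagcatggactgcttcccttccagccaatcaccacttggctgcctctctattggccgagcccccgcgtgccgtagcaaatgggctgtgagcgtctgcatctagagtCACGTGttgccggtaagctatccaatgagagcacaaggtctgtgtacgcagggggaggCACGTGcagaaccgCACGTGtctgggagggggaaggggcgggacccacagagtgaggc
Nfil3: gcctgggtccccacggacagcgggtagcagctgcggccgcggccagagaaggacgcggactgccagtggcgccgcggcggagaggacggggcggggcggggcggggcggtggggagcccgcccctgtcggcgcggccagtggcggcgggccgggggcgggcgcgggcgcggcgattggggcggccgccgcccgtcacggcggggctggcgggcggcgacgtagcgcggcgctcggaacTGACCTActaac

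Over all promoters, searched on both strands, 8.12% held CACGTG, 0.900% the D-box TTATGTAA and 2.31% the ROR element core TAGGTCA. Of the clock genes with a promoter 5 of 14 held an E-box (35.7%). The E-box share was 12.7% among shifted genes, 16.3% among those with the same time and another size, 10.2% among liver-only genes, 13% among white adipose-only genes and 12.9% among genes rhythmic in both with no difference detected, against 7.09% of the genes with no call and no difference. List members with a promoter held one in 33 of 205 cases (16.1%). A match is a description of the letters and no evidence of binding.

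**Figure D4:**
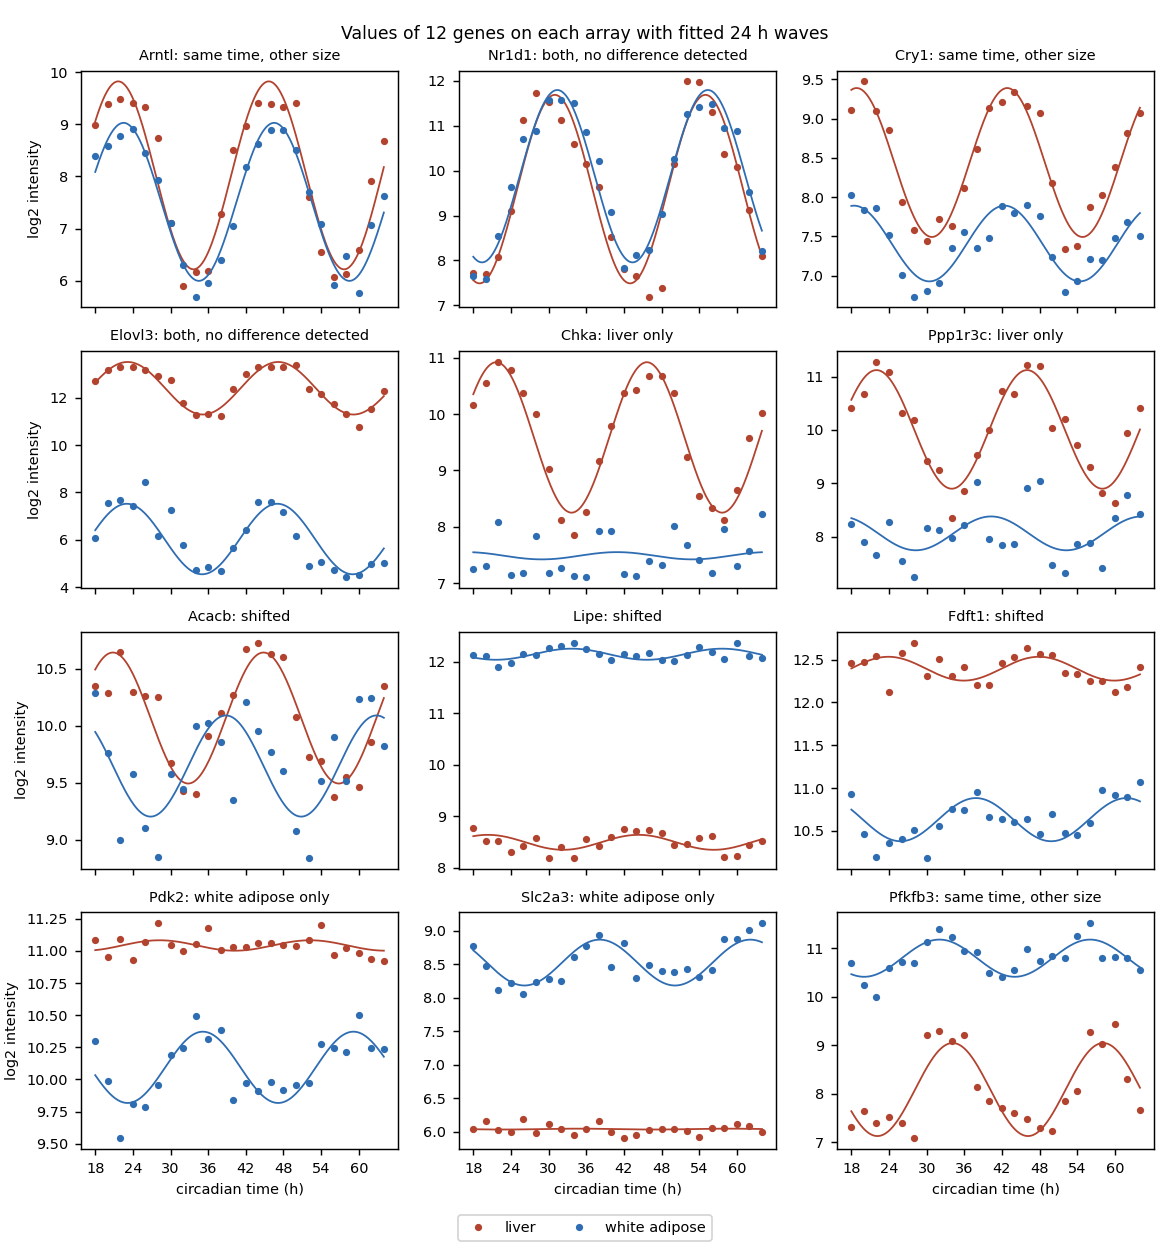
Log2 intensity of 12 genes on each array against circadian time (h), with liver in red and white adipose in blue, and the fitted 24 h wave as a line. Arntl, Nr1d1 and Elovl3 swing together in both tissues, Chka and Ppp1r3c are called liver-only and Pdk2 and Slc2a3 white adipose-only, and Acacb, Lipe and Fdft1 peak at different hours.

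Fatty acid synthesis had 6 genes that were rhythmic in both tissues, and 4 of them peaked at other hours in liver than in white adipose. Of 16 measured genes, 13 were rhythmic in liver (81.25%, against 26.8% of all genes) and 6 in white adipose (37.5%, against 4.85%). Of the same 16, 4 were shifted (25%, against 0.898%), and 2 were rhythmic in both with no difference detected (12.5%, against 1.41%). Another 2 were liver-only (12.5%, against 7.64%) and none was white adipose-only (1.4% of all genes). The median fold of the list was 1.46 in liver and 1.49 in white adipose. Acacb, the acetyl-CoA carboxylase whose malonyl-CoA restrains the entry of fatty acids into mitochondria, ran from 9.38 (CT56) to 10.73 (CT44), median 10.19, in liver, and from 8.84 (CT52) to 10.29 (CT18), median 9.69, in white adipose. Liver arrays were highest at CT22 and from CT42 to CT48 and white adipose arrays at CT18, CT42, CT60 and CT62. The ranges of the tissues overlap. It had cosine and sine coefficients of 0.39 and -0.43 in liver and of -0.33 and -0.30 in white adipose (log2). Its wave was 2.22-fold in liver (95% interval 1.95 to 2.53), with a peak at CT20.8, and 1.85-fold in white adipose (interval 1.45 to 2.37), with a peak at CT14.8. The test of the difference gave an adjusted p of 4.2e-06. The liver peak came 5.99 h after that of white adipose (95% interval 4.44 to 7.54 h). Fits to single days put the peaks at CT21.0 and CT20.7 in liver and at CT14.1 and CT15.4 in white adipose.

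Thrsp, a nuclear protein of lipogenic tissues, ran from 9.85 (CT52) to 12.75 (CT38), median 11.82, in liver, and from 10.57 (CT56) to 12.22 (CT18), median 11.47, in white adipose. The ranges overlap, and liver arrays reached lower than any white adipose array. Its wave was 3.24-fold at CT15.6 in liver and 2.14-fold at CT18.6 in white adipose, so that liver peaked 3.02 h earlier, at the edge of the 3 h rule (adjusted p 0.00375). With both marker covariates the gap was under 3 h. Fasn, the fatty acid synthase itself, ran from 11.49 (CT52) to 12.94 (CT40), median 12.25, in liver, and from 11.86 (CT58) to 12.98 (CT46), median 12.56, in white adipose. The ranges overlap, and the lowest liver array was CT52 and the lowest white adipose array CT58. Its wave was 1.76-fold at CT16.2 in liver and 1.41-fold at CT21.4 in white adipose, 5.18 h earlier in liver (adjusted p 0.00211). Elovl5, an elongase of polyunsaturated fatty acids, had 1.52-fold at CT1.61 in liver and 1.21-fold at CT21.4 in white adipose, and both genes were chosen after their values were seen. With both marker covariates Fasn and Elovl5 were no longer called in white adipose (adjusted p 0.167 and 0.292).

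Elovl3, an elongase of very long saturated fatty acids, had the largest wave among list members rhythmic in both tissues. Its values ran from 10.77 (CT60) to 13.38 (CT50), median 12.53, in liver, and from 4.42 (CT58) to 8.43 (CT26), median 5.92, in white adipose. No white adipose array reached the lowest liver array. Its median in white adipose lay below the median gene of that tissue (6.96), so the wave there was fitted to a dim signal. The wave was 4.66-fold in liver (95% interval 3.83 to 5.66), with a peak at CT23.2, and 7.88-fold in white adipose (interval 4.58 to 13.6), with a peak at CT23.0, with no difference detected (adjusted p 0.424) and a peak gap whose interval was -1.14 to 1.39 h. The hepatocyte marker mean in white adipose peaked at CT21.7, near Elovl3, and the white adipose wave was 4.14-fold with both marker covariates (adjusted p 5.09e-06). The hepatocyte mean was flat in liver (1.01-fold), so as a covariate it follows the amount of hepatocyte RNA and not a rhythm within that RNA. Whether the white adipose wave of Elovl3 arose in adipose cells was not tested. Acly, which makes cytosolic acetyl-CoA, had 1.74-fold at CT19.6 in liver and 1.94-fold at CT21.8 in white adipose, with no detected difference (adjusted p 0.352, or 0.0246 with the spread shared over all 288 arrays). It was at the threshold in white adipose with the covariates (adjusted p 0.05004). Elovl6, the elongase of palmitate, and Acaca, the carboxylase of lipogenesis, were liver-only, with waves of 1.94-fold at CT13.7 and 1.41-fold at CT14.1 in liver. Elovl6 became rhythmic in white adipose with the covariates, at 2.22-fold and CT22.1 (adjusted p 0.0140), which made it a shifted gene in that fit.

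Cholesterol synthesis and uptake was rhythmic in liver in most of its genes. Of 18 measured genes, 15 were rhythmic in liver (83.3%, against 26.8% of all genes) and 5 in white adipose (27.8%, against 4.85%), all 5 in both. Of these 5, 2 were shifted (11.1% of the list, against 0.898%), 1 had the same time and another size (5.56%, against 0.286%) and 2 showed no detected difference (11.1%, against 1.41%). A further 3 were liver-only (16.7%, against 7.64%). Hmgcs1, which condenses acetyl units into the precursor of mevalonate, ran from 11.32 (CT60) to 12.73 (CT28), median 12.15, in liver, and from 9.72 (CT58) to 10.49 (CT46), median 9.99, in white adipose. The tissues did not overlap, and liver was higher. Its wave was 1.96-fold at CT1.36 in liver and 1.49-fold at CT23.3 in white adipose (adjusted p 0.0450 for the difference). That call was lost without liver CT34 and white adipose CT64, the array of each tissue least like the others (adjusted p 0.0773), and after quantile normalization (0.108). It was lost with the hepatocyte covariate alone as well (adjusted p 0.0542). Fdft1, the squalene synthase, ran from 12.12 (CT24) to 12.70 (CT28), median 12.42, in liver, and from 10.19 (CT30) to 11.07 (CT64), median 10.62, in white adipose. The tissues did not overlap, and liver was higher. Its wave was small in liver, 1.21-fold at CT23.9, and 1.42-fold at CT13.8 in white adipose, 10.1 h apart (adjusted p 6.7e-05). Single-day fits put the Fdft1 peaks at CT2.67 and CT22.7 in liver and at CT13.9 and CT13.8 in white adipose.

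Idi1, the isopentenyl diphosphate isomerase, was the other shifted gene of the list, with 1.23-fold at CT2.39 in liver and 1.63-fold at CT22.2 in white adipose (adjusted p 0.0148). Pmvk, a kinase of the mevalonate pathway, had 2.02-fold at CT21.5 in liver and 1.43-fold at CT21.6 in white adipose, and Dhcr7, the last reductase of the pathway, 1.41-fold at CT22.7 in liver and 1.54-fold at CT21.4 in white adipose, both with no detected difference. Pmvk was not called in white adipose with both marker covariates (adjusted p 0.105), and its difference passed among bright genes alone (0.0341) and with the spread shared over all 288 arrays (0.000190). Mvd and Mvk, decarboxylase and kinase of mevalonate, were liver-only, with 1.71-fold at CT20.6 and 1.38-fold at CT1.73 in liver. The difference of Mvd was lost without liver CT34 and white adipose CT64 (adjusted p 0.0567) and that of both genes after quantile normalization (0.350 for Mvd and 0.0535 for Mvk).

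Fatty acid oxidation and ketone bodies had no called gene in white adipose. Of 21 measured genes, 10 were rhythmic in liver (47.6%, against 26.8% of all genes), and 3 differed between the tissues (14.3%, near the 11.3% of all genes). In white adipose limma called none of the 21 (against 4.85% of all genes), and in a list of this size none called is near that share. At an unadjusted p under 0.05 limma called 2 (9.52%, against 17% of all genes), and the fit to ranks called none. Acot2, a mitochondrial thioesterase that frees fatty acids from coenzyme A, ran from 7.96 (CT36) to 9.03 (CT26), median 8.37, in liver, and from 9.58 (CT50) to 10.38 (CT34), median 9.90, in white adipose. Every white adipose array stood above every liver array. Its wave was 1.57-fold at CT0.378 in liver (interval 1.37 to 1.80) and 1.12-fold in white adipose (interval 1.0 to 1.33). The difference had an adjusted p of 0.000919. Acot1, its cytosolic relative, had 1.75-fold at CT19.9 in liver and 1.12-fold in white adipose (adjusted p 0.000496 for the difference). Acot1 and Acot2 are close paralogs, and probes can share signal between them. Cpt1a, the carnitine transferase that controls mitochondrial entry, had 1.51-fold at CT9.26 in liver and 1.31-fold at CT6.59 in white adipose, called in liver alone and with no passing difference (adjusted p 0.0921), and it was named after its values were seen.

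Triglyceride synthesis differed between the tissues in 7 of 13 measured genes (53.8%, against 11.3% of all genes). In liver 9 of them were rhythmic (69.2%, against 26.8%) and in white adipose 5 (38.5%, against 4.85%). Of the 13, 3 were shifted (23.1%, against 0.898%), 1 was of the same time and another size (7.69%, against 0.286%) and 2 were liver-only (15.4%, against 7.64%). Lpin1, the phosphatidate phosphatase that makes diacylglycerol, ran from 9.30 (CT24) to 12.28 (CT36), median 10.91, in liver, and from 10.51 (CT22) to 11.54 (CT60), median 11.10, in white adipose. The liver arrays spanned a wider range that contained all white adipose arrays. Its wave was 3.30-fold in liver (95% interval 2.35 to 4.64), with a peak at CT11.3, and 1.37-fold in white adipose (interval 1.18 to 1.61), with a peak at CT13.4. The test of the difference gave an adjusted p of 0.00167. Dgat2, which adds the last fatty acid of triglyceride, ran from 12.62 (CT50) to 12.99 (CT38), median 12.79, in liver, and from 12.21 (CT56) to 12.85 (CT18), median 12.62, in white adipose. Liver and white adipose overlap in range. Its waves were shallow, 1.19-fold at CT12.8 in liver and 1.27-fold at CT19.2 in white adipose, and 6.45 h earlier in liver (adjusted p 0.000387), but the white adipose call was lost with both marker covariates (adjusted p 0.0577).

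Gpat4, a glycerol-phosphate acyltransferase of the endoplasmic reticulum, peaked 3.94 h later in liver, with 1.24-fold at CT14.1 in liver and 1.32-fold at CT10.1 in white adipose (adjusted p 0.0131). Gpd1, which supplies glycerol phosphate, was shifted as well, with 1.12-fold at CT0.616 in liver and 1.45-fold at CT17.5 in white adipose, and was named after its values were seen. Agpat2, the acyltransferase whose loss causes lipodystrophy in humans, was liver-only with 1.70-fold at CT20.7 in liver and 1.27-fold in white adipose (adjusted p 0.0145). Gpam, the mitochondrial acyltransferase, was liver-only too, with 1.45-fold at CT18.6 in liver and 1.16-fold in white adipose (adjusted p 0.0185). Gpat3, the acyltransferase of adipocytes, and 3 genes of other lists differed between the tissues without a call in either.

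Among the lipases of the lipid droplet, Lipe and Pnpla3 peaked at other hours in liver than in white adipose, and Pnpla2 and Mgll were rhythmic in liver only. Of 19 measured genes of lipid droplets and lipolysis, 11 were rhythmic in liver (57.9%, against 26.8% of all genes) and 3 in white adipose (15.8%, against 4.85%). Of the 19, 2 were shifted (10.5%, against 0.898%), 3 liver-only (15.8%, against 7.64%) and none white adipose-only (1.4% of all genes). Lipe, the hormone-sensitive lipase, ran from 8.19 (CT34) to 8.76 (CT18), median 8.51, in liver, and from 11.90 (CT22) to 12.38 (CT34), median 12.14, in white adipose. No liver array reached the lowest white adipose array. Its wave was shallow in both, 1.22-fold in liver (95% interval 1.09 to 1.38), with a peak at CT20.3, and 1.16-fold in white adipose (interval 1.08 to 1.25), with a peak at CT9.63, with peaks 10.7 h apart (interval 7.56 to 13.8 h) and an adjusted p of 0.00149 for the difference. The white adipose call itself was close to the threshold (adjusted p 0.0459). Single-day fits put the Lipe peaks at CT18.4 and CT21.9 in liver and at CT9.36 and CT10.4 in white adipose.

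Pnpla2, the adipose triglyceride lipase that takes the first step, ran from 9.0 (CT42) to 9.82 (CT56), median 9.25, in liver, and from 11.99 (CT28) to 12.52 (CT34), median 12.28, in white adipose. The tissues did not overlap, and white adipose was higher. It was liver-only, with 1.59-fold at CT8.42 in liver (interval 1.45 to 1.75) and 1.08-fold in white adipose (interval 1.0 to 1.21; adjusted p 3.36e-05 for the difference). Mgll, the monoglyceride lipase of the last step, was liver-only too, with 1.46-fold at CT15.2 in liver and 1.1-fold in white adipose (adjusted p 3.81e-05). Plin2, a coat protein of droplets, was the other liver-only gene, with 1.45-fold at CT0.460 in liver and 1.2-fold in white adipose, and was named after its values were seen. Pnpla3, a lipase of liver and fat, ran from 6.82 (CT52) to 7.88 (CT40), median 7.06, in liver, and from 10.18 (CT58) to 11.46 (CT18), median 10.86, in white adipose. Every white adipose array stood above every liver array. Its wave was 1.46-fold at CT17 in liver and 1.97-fold at CT20.6 in white adipose, 3.59 h earlier in liver (adjusted p 0.00272).

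E-boxes also lay before genes whose rhythm differed between the tissues, and 3 such windows are shown to set against those of Ciart and Nfil3. They are Lipe, which was shifted, Ppp1r3c, which was liver-only, and Pdk2, which was white adipose-only, each on the minus strand and each with 1 E-box in capitals, which begins 155, 104 and 126 bases before the start in that order. The windows are chr7:25395988-25396237 for the first of the annotated starts of Lipe, chr19:36736605-36736854 for Ppp1r3c and chr11:95041372-95041621 for the first start of Pdk2 (GRCm38.p6, RefSeq). The second starts of Lipe and Pdk2 had none of the motifs, and the same letters stood before genes of 3 different classes.
Lipe: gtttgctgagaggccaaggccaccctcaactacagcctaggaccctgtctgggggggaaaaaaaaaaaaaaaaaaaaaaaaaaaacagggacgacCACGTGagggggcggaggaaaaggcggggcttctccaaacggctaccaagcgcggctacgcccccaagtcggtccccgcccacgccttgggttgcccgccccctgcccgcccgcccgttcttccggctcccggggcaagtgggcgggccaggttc
Ppp1r3c: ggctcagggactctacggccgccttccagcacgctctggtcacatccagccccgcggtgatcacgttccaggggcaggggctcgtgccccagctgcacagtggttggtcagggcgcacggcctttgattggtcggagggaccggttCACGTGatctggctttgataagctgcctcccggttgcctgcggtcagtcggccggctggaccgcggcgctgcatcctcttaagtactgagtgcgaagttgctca
Pdk2: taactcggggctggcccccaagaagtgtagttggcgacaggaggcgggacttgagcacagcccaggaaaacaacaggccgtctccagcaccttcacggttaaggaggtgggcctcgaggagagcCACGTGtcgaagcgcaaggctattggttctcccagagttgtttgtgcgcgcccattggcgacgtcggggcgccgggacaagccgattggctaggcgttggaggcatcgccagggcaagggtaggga

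Lipoproteins and fatty acid uptake had 28 measured genes, of which 14 were rhythmic in liver (50%, against 26.8% of all genes) and 4 in white adipose (14.3%, against 4.85%). Both tissues called 1 (3.57%, near the 2.59% of all genes). The difference passed in 4 of the 28 (14.3%, near the 11.3% of all genes). Lpl, the lipase that frees fatty acids from circulating lipoproteins, ran from 7.75 (CT62) to 9.34 (CT50), median 8.63, in liver, and from 12.65 (CT58) to 12.93 (CT48), median 12.85, in white adipose. All 24 liver arrays lay below all 24 of white adipose. It was liver-only, with 1.79-fold at CT2.68 in liver (interval 1.49 to 2.15) and 1.04-fold in white adipose (interval 1.0 to 1.11; adjusted p 7.42e-05). Angptl4, the secreted inhibitor of that lipase, ran from 8.88 (CT24) to 10.41 (CT56), median 9.92, in liver, and from 9.39 (CT38) to 10.89 (CT26), median 10.24, in white adipose. These ranges overlap. The fitted peak lay in the subjective day in liver and at the end of the subjective night in white adipose, with 1.55-fold at CT7.91 in liver and 1.72-fold at CT23.9 in white adipose, 8.01 h apart (interval 5.24 to 10.8 h; adjusted p 0.00174). Slc27a1, a fatty acid transport protein, ran from 7.65 (CT58) to 8.18 (CT52), median 7.92, in liver, and from 10.53 (CT22) to 11.63 (CT56), median 11.11, in white adipose. No liver array reached the lowest white adipose array. It was white adipose-only, with 1.1-fold in liver and 1.55-fold at CT10.9 in white adipose (adjusted p 0.000849). Abca1, the exporter of cholesterol to apolipoproteins, was white adipose-only too, with 1.1-fold in liver and 1.25-fold at CT8.82 in white adipose (adjusted p 0.00399). The apolipoprotein genes Apoa1, Apob and Apoc3 and the liver fatty acid binding protein Fabp1 had fitted waves of 1.0, 1.03, 1.14 and 1.1-fold in liver and 2.82, 2.59, 2.45 and 2.92-fold in white adipose, where none was called (limma adjusted p 0.225, 0.227, 0.213 and 0.321). With both marker covariates those white adipose folds were 1.05-fold, 1.07-fold, 1.04-fold and 1.59-fold, and these genes were named after their values were seen.

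Phospholipid synthesis held the largest liver wave of the lists. Of 11 measured genes, 7 were rhythmic in liver (63.6%, against 26.8% of all genes) and 3 were liver-only (27.3%, against 7.64%). In white adipose limma called none (against 4.85% of all genes), and in a list of 11 genes none called is near that share. At an unadjusted p under 0.05 limma called 3 (27.3%, against 17% of all genes), and the fit to ranks called none. Chka, the choline kinase that starts phosphatidylcholine synthesis, ran from 7.86 (CT34) to 10.93 (CT22), median 9.90, in liver, and from 7.11 (CT36) to 8.23 (CT64), median 7.32, in white adipose. Liver arrays were high around CT22 and CT46, and only those at CT32, CT34 and CT58 fell into the range of white adipose. It had cosine and sine coefficients of 1.09 and -0.77 in liver and of -0.02 and -0.06 in white adipose (log2). The wave was 6.37-fold in liver (interval 5.15 to 7.87) with a peak at CT21.7, and 1.09-fold in white adipose (interval 1.0 to 1.47). The difference had an adjusted p of 3.1e-09 (1.38e-08 with both marker covariates). Gpcpd1, which breaks down glycerophosphocholine, ran from 9.99 (CT24) to 11.97 (CT36), median 10.95, in liver, and from 8.82 (CT58) to 9.35 (CT34), median 9.16, in white adipose. All 24 liver arrays lay above all 24 of white adipose. It peaked at the other side of the day, with 3.21-fold at CT7.97 in liver and 1.11-fold in white adipose (adjusted p 4.38e-07).

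**Figure D5:**
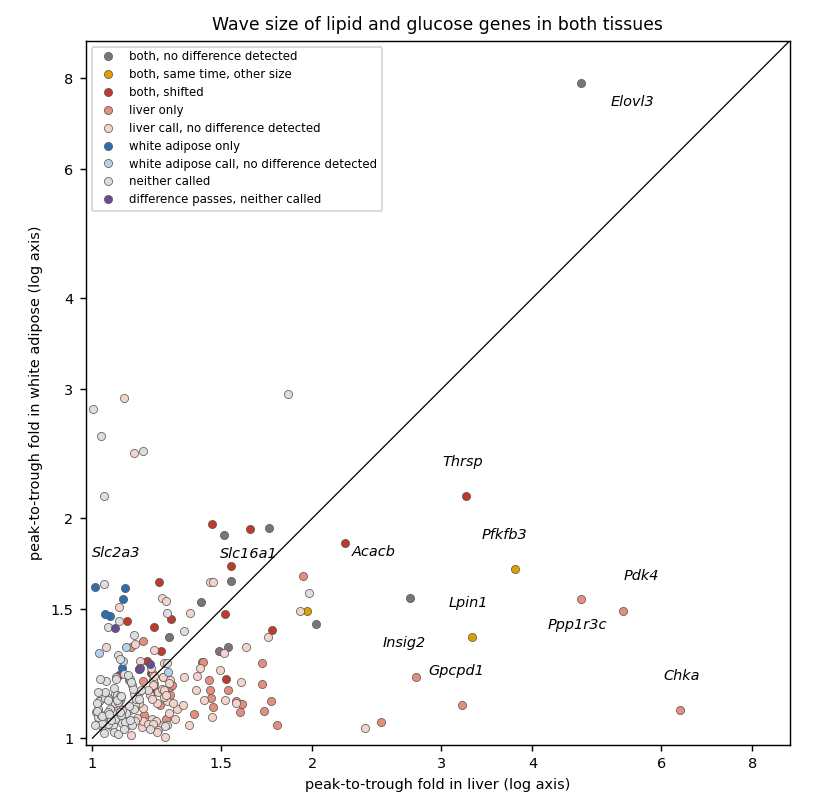
Fitted peak-to-trough fold of the 246 list members in liver (horizontal) against white adipose (vertical), both on log axes, coloured by class, with the line of equal folds. Chka, Pdk4 and Ppp1r3c lie far to the right at 6.37, 5.33 and 4.66-fold in liver, and Elovl3 alone is above 4-fold in both tissues.

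Glycolysis was called in 10 of 19 measured genes of liver (52.6%, against 26.8% of all genes) and 3 of white adipose (15.8%, against 4.85%). The difference passed in 3 (15.8%, near the 11.3% of all genes). Pfkfb3, which makes the activator of phosphofructokinase, ran from 7.08 (CT28) to 9.43 (CT60), median 7.78, in liver, and from 9.99 (CT22) to 11.52 (CT56), median 10.80, in white adipose. Every white adipose array stood above every liver array. Both tissues were high in the second part of the subjective day, with a wave of 3.79-fold in liver (95% interval 2.76 to 5.20), with a peak at CT10.1, and 1.70-fold in white adipose (interval 1.42 to 2.04), with a peak at CT8.04 (adjusted p 0.00148 for the difference). Pfkp, the platelet form of phosphofructokinase, ran from 5.99 (CT58) to 6.35 (CT28), median 6.13, in liver, and from 8.26 (CT58) to 9.33 (CT46), median 8.79, in white adipose. The tissues did not overlap, and white adipose was higher. It was white adipose-only, with 1.11-fold in liver (adjusted p 0.0510, just outside the threshold) and 1.6-fold at CT22.3 in white adipose (adjusted p 0.000233 for the difference). Its liver arrays all lay below the median gene of that tissue (6.93), at which a flat wave and a lack of signal cannot be told apart. Aldoa, an aldolase, was liver-only with 1.24-fold at CT10.2 in liver and 1.11-fold in white adipose, and its difference was lost with both marker covariates (adjusted p 0.0502).

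Gluconeogenesis had 6 of 14 measured genes rhythmic in liver (42.9%, against 26.8% of all genes) and 1 in white adipose. There was 1 difference, that of Gpt, an alanine transaminase with no call in either tissue. The shares called in white adipose and different were both 7.14%, against 4.85% and 11.3% of all genes. The 1 gene rhythmic in both was Pck1, the cytosolic PEPCK, which serves glucose production in liver and glycerol production in fat. It ran from 12.06 (CT64) to 13.25 (CT60), median 12.77, in liver, and from 10.86 (CT48) to 12.16 (CT34), median 11.55, in white adipose, with overlapping ranges and highs in the subjective day in both. Its wave was 1.55-fold in liver (95% interval 1.28 to 1.88), with a peak at CT8.42, and 1.64-fold in white adipose (interval 1.32 to 2.04), with a peak at CT7.67. The difference had an adjusted p of 0.875 with a 95% interval of -1.67 to 3.17 h for the peak gap.

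Glycogen metabolism was rhythmic in 12 of 16 measured genes of liver (75%, against 26.8% of all genes) and 3 of white adipose (18.75%, against 4.85%). The coefficients differed in 5 (31.25%, against 11.3%). Ppp1r3c, a scaffold that brings protein phosphatase 1 to glycogen, ran from 8.36 (CT34) to 11.27 (CT22), median 10.12, in liver, and from 7.24 (CT28) to 9.05 (CT48), median 7.97, in white adipose. Liver was high around CT22 and CT46, and only its arrays at CT34, CT36, CT58 and CT60 fell into the range of white adipose. It was liver-only, with 4.66-fold at CT22.0 in liver (interval 3.73 to 5.84) and 1.55-fold in white adipose (interval 1.06 to 2.26; adjusted p 4.98e-06). Its relative Ppp1r3d was white adipose-only, with 1.04-fold in liver and 1.48-fold at CT19.2 in white adipose (adjusted p 0.00312). Another scaffold, Ppp1r3b, ran from 8.28 (CT54) to 10.68 (CT40), median 10.19, in liver, and from 6.91 (CT52) to 8.26 (CT62), median 7.28, in white adipose. Every liver array stood above every white adipose array. Its wave was 2.72-fold at CT17.8 in liver and 1.55-fold at CT17.3 in white adipose, with no difference detected (adjusted p 0.0561). The difference passed among bright genes alone (0.0346), with the epididymis covariate (0.0456) and with the spread shared over all 288 arrays (0.000887), and the white adipose call was lost with both marker covariates (adjusted p 0.0923).

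Gys2, the liver glycogen synthase, ran from 11.69 (CT26) to 12.62 (CT40), median 12.36, in liver, and from 6.57 (CT58) to 8.65 (CT46), median 7.74, in white adipose. No white adipose array reached the lowest liver array. Its wave was 1.64-fold at CT12.8 in liver and 1.93-fold at CT21.7 in white adipose, 8.95 h earlier in liver (adjusted p 3.15e-05). In the fit with both marker covariates the white adipose wave was 1.55-fold and no longer called (adjusted p 0.215), while the difference kept an adjusted p of 0.000586. Ugp2, which makes the UDP-glucose that glycogen is built from, was liver-only with 1.28-fold at CT8.91 in liver and 1.14-fold in white adipose (adjusted p 0.000275).

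Slc2a3 was rhythmic in white adipose only, and Slc2a2 and Slc2a1 in liver only. Of 14 measured genes of glucose and lactate transport, 7 were rhythmic in liver (50%), 3 in white adipose (21.4%) and 2 in both (14.3%), and 4 differed (28.6%). Over all genes these shares were 26.8%, 4.85%, 2.59% and 11.3%. Slc2a3, a high-affinity glucose transporter, ran from 5.90 (CT42) to 6.2 (CT26), median 6.04, in liver, and from 8.06 (CT26) to 9.12 (CT64), median 8.45, in white adipose. No liver array reached the lowest white adipose array. It was white adipose-only, with 1.01-fold in liver (interval 1.0 to 1.08) and 1.61-fold at CT14.1 in white adipose (interval 1.40 to 1.85; adjusted p 8.74e-05). All its liver arrays lay below the median gene (6.93), where a flat wave and a lack of signal cannot be told apart, and the mean of Slc2a2 lay below that of white adipose (6.96). Slc2a2, the glucose transporter of hepatocytes, ran from 11.60 (CT48) to 12.30 (CT58), median 12.01, in liver, and from 5.72 (CT52) to 6.92 (CT32), median 6.14, in white adipose. All 24 liver arrays lay above all 24 of white adipose. It was liver-only with 1.53-fold at CT10.7 in liver (adjusted p 0.00699 for the difference), and with both marker covariates it was called in white adipose at 1.23-fold and CT9.23 (adjusted p 0.0207). Slc2a1, the widespread transporter, was liver-only with 1.42-fold at CT19.1 in liver and 1.27-fold in white adipose (adjusted p 0.00631).

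Slc2a9, a urate transporter of the same family, was shifted with 1.2-fold at CT9.60 in liver and 1.23-fold at CT4.82 in white adipose (adjusted p 0.0189). Slc16a1, which carries lactate, pyruvate and ketone bodies, ran from 9.86 (CT58) to 10.77 (CT24), median 10.48, in liver, and from 8.79 (CT34) to 10.33 (CT42), median 9.44, in white adipose. There is overlap between the tissues. Both tissues were high late in the subjective night, with 1.51-fold in liver (95% interval 1.38 to 1.66), with a peak at CT21.8, and 1.90-fold in white adipose (interval 1.57 to 2.28), with a peak at CT21.0, and no difference was detected (adjusted p 0.220, or 0.0425 after quantile normalization and 0.0463 with the spread shared over all 288 arrays).

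Of the pyruvate dehydrogenase kinases, which switch the complex off, 1 was rhythmic in each tissue. The list had 12 measured genes, 3 rhythmic in liver (25%, near the 26.8% of all genes) and 2 in white adipose (16.7%, against 4.85%). The difference passed in 6 (50%, against 11.3%). Pdk4, the kinase induced by fasting, ran from 6.99 (CT56) to 9.9968 (CT50), median 8.78, in liver, and from 8.19 (CT58) to 9.37 (CT20), median 8.80, in white adipose, and the liver range contained that of white adipose. It was liver-only, with 5.33-fold at CT21.8 in liver (interval 3.76 to 7.54) and 1.49-fold in white adipose (interval 1.2 to 1.86; adjusted p 3.92e-05), where its own call missed the threshold (adjusted p 0.0699). Pdk2, the widespread kinase, ran from 10.92 (CT64) to 11.22 (CT28), median 11.04, in liver, and from 9.54 (CT22) to 10.50 (CT60), median 10.09, in white adipose. The tissues did not overlap, and liver was higher. It was white adipose-only, with cosine and sine coefficients of 0.02 and 0.04 in liver and of -0.27 and 0.06 in white adipose (log2). The wave was 1.06-fold in liver (interval 1.0 to 1.13) and 1.47-fold at CT11.2 in white adipose (interval 1.31 to 1.65; adjusted p 5.7e-05).

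Pdhb, a subunit of the dehydrogenase, ran from 9.42 (CT46) to 10.02 (CT32), median 9.72, in liver, and from 8.84 (CT58) to 9.87 (CT46), median 9.33, in white adipose. The ranges of the tissues overlap. Its wave was 1.28-fold at CT11.0 in liver and 1.46-fold at CT19.7 in white adipose, 8.68 h earlier in liver (adjusted p 0.000335), and the white adipose call was lost with both marker covariates (adjusted p 0.134). Dlat, the acetyl transferase subunit, was liver-only with 1.12-fold at CT5.23 in liver and 1.2-fold, uncalled, in white adipose, and its difference was lost with the covariates (adjusted p 0.0616). In the pentose phosphate pathway 3 of 7 measured genes were rhythmic in liver (42.9%, against 26.8% of all genes) and 2 in white adipose (28.6%, against 4.85%). The difference passed in 1 gene (14.3%, near the 11.3% of all genes). This was H6pd, the dehydrogenase of the endoplasmic reticulum, with 1.28-fold at CT1.84 in liver and 1.18-fold in white adipose (adjusted p 0.000142). Pgd, a source of NADPH, ran from 9.63 (CT34) to 10.49 (CT44), median 10.17, in liver, and from 10.58 (CT58) to 11.40 (CT46), median 10.95, in white adipose. The tissues did not overlap, and white adipose was higher. It had 1.53-fold at CT21.1 in liver and 1.33-fold at CT21.2 in white adipose with no difference detected, and was not called in white adipose with the covariates (adjusted p 0.164).

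Insulin and glucagon signalling had 11 of 14 measured genes rhythmic in liver (78.6%, against 26.8% of all genes) and 2 in white adipose (14.3%, against 4.85%). Both of the latter were shifted (14.3%, against 0.898%), and 2 genes were liver-only (14.3%, against 7.64%). Irs2, an adaptor of the insulin receptor, ran from 7.17 (CT62) to 8.31 (CT50), median 7.64, in liver, and from 7.48 (CT40) to 8.63 (CT34), median 8.07, in white adipose. Liver and white adipose overlap in range. Its wave was 1.52-fold in liver (95% interval 1.26 to 1.83), with a peak at CT0.730, and 1.48-fold in white adipose (interval 1.24 to 1.77), with a peak at CT7.46, 6.73 h earlier in liver (adjusted p 0.00203). Akt2, the kinase downstream, had shallow waves of 1.09-fold at CT22.8 in liver and 1.22-fold at CT12.7 in white adipose, 10.1 h apart (adjusted p 0.000681). Trib3, an inhibitor of AKT, was liver-only with 1.6-fold at CT5.61 in liver and 1.11-fold in white adipose (adjusted p 0.00535). Adipor2, an adiponectin receptor, was liver-only with 1.17-fold at CT22.0 in liver and 1.2-fold in white adipose (adjusted p 0.00242), so that the fitted wave was the larger one in white adipose. Trib3 was called in white adipose with both covariates (adjusted p 0.0481).

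Of 24 measured transcriptional regulators, 18 were rhythmic in liver (75%, against 26.8% of all genes) and 3 in white adipose (12.5%, against 4.85%). All 3 (Ppara, Klf15 and Esrra) were rhythmic in both with no difference detected (1.41% of all genes), and 7 were liver-only (29.2%, against 7.64%). Insig2, which holds back the processing of the SREBP factors, ran from 10.92 (CT36) to 12.53 (CT50), median 11.96, in liver, and from 9.54 (CT40) to 10.31 (CT56), median 9.82, in white adipose. All 24 liver arrays lay above all 24 of white adipose. Its wave was 2.77-fold at CT23.6 in liver (interval 2.42 to 3.17) and 1.21-fold in white adipose (interval 1.09 to 1.35; adjusted p 1.23e-10), and with both covariates it was called in white adipose at CT5.55 (adjusted p 0.0350). Ppard, a nuclear receptor for fatty acids, ran from 8.27 (CT34) to 9.92 (CT22), median 8.76, in liver, and from 8.78 (CT22) to 9.09 (CT58), median 8.92, in white adipose, and the liver range contained that of white adipose. It had 2.48-fold at CT21.5 in liver (interval 2.02 to 3.05) and 1.05-fold in white adipose (interval 1.0 to 1.13; adjusted p 8.64e-08). Ppara, the receptor that drives fatty acid oxidation, ran from 11.05 (CT24) to 11.85 (CT54), median 11.42, in liver, and from 7.60 (CT42) to 8.26 (CT32), median 7.84, in white adipose, without overlap. Its wave was 1.49-fold at CT10.1 in liver and 1.31-fold at CT8.95 in white adipose with no difference detected (adjusted p 0.251). Klf15, a factor of fasting metabolism, had 1.27-fold at CT10.6 in liver and 1.37-fold at CT11.5 in white adipose with no difference detected. Srebf1, the factor of lipogenesis, had 1.74-fold at CT13.5 in liver and 1.38-fold at CT14.5 in white adipose, called in liver alone with no passing difference (adjusted p 0.334). The other liver-only regulators were Nr0b2, Cebpb, Scap, Mlxipl and Rxra, which like Esrra and Srebf1 were named after their values were seen, with waves between 1.17-fold (Mlxipl) and 1.71-fold (Nr0b2) in liver. The differences of Cebpb and Rxra were lost with both marker covariates (adjusted p 0.0728 and 0.294).

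The genes named outside the lists have the largest waves in each class among genes that lay above the median gene, and had single-day peaks within 4 h of each other, in each tissue that called them. Osgin1, an inhibitor of cell growth induced by oxidative stress, was shifted and ran from 9.76 (CT38) to 11.42 (CT28), median 10.78, in liver, and from 6.73 (CT56) to 8.54 (CT18), median 7.84, in white adipose. Every liver array stood above every white adipose array. Its wave was 2.21-fold in liver (95% interval 1.86 to 2.63), with a peak at CT0.294, and 2.48-fold in white adipose (interval 2.07 to 2.96), with a peak at CT19.4, 4.88 h apart (interval 3.74 to 6.01 h; adjusted p 3.36e-07). Esr1, the estrogen receptor alpha, ran from 8.81 (CT54) to 9.74 (CT38), median 9.40, in liver, and from 8.55 (CT22) to 9.99 (CT62), median 9.47, in white adipose. These ranges overlap. Its waves were near-equal, 1.69-fold at CT17.7 in liver and 1.64-fold at CT11.9 in white adipose (adjusted p 4.82e-06). Single-day fits put its peaks at CT17.6 and CT17.7 in liver and at CT12.0 and CT11.9 in white adipose. Fmo2, a flavin monooxygenase, Fbxo21, an F-box protein, and Slc4a4, a bicarbonate cotransporter, peaked 3.73, 3.54 and 3.57 h earlier in liver, with adjusted p 0.00218, 9.8e-06 and 0.00152. Among the 162 shifted genes outside the lists, 51 peaked later in liver and the median gap was 5.56 h, against 10 of 17 and 6.45 h within the lists.

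Wee1, a kinase that delays mitosis, kept its time and ran from 7.03 (CT50) to 9.82 (CT56), median 9.17, in liver, and from 7.43 (CT26) to 8.71 (CT60), median 8.11, in white adipose, with the liver range containing that of white adipose. Its wave was 4.55-fold in liver (95% interval 3.22 to 6.43), with a peak at CT13, and 2.03-fold in white adipose (interval 1.82 to 2.25), with a peak at CT13.6 (adjusted p 0.00460 for the difference). Nrg4, a hormone-like growth factor made by fat, had 4.19-fold at CT11.0 in liver and 2.37-fold at CT13.1 in white adipose, and Rnf125, a ubiquitin ligase, 3.23-fold at CT24.0 in liver and 1.94-fold at CT23.2 in white adipose. Acot4, a peroxisomal thioesterase, had the larger wave in white adipose, with 1.64-fold at CT13.1 in liver and 2.73-fold at CT11.4 in white adipose (adjusted p 0.0244, or 0.139 with the hepatocyte covariate alone). Gdap10 had 3.02-fold at CT11.2 in liver and 1.77-fold at CT11.7 in white adipose with a difference at the threshold (adjusted p 0.0493, or 0.176 with both marker covariates). Of the 57 genes of this kind, 41 had the larger wave in liver. Dtx4, a ubiquitin ligase of the Notch pathway, ran from 7.17 (CT58) to 9.08 (CT24), median 8.33, in liver, and from 7.31 (CT36) to 9.35 (CT48), median 8.42, in white adipose. There is overlap between the tissues. Its waves were nearly equal, 3.02-fold at CT22.8 in liver and 3.50-fold at CT22.9 in white adipose (adjusted p 0.589), but the difference passed after quantile normalization (0.000922). Usp2, a deubiquitinase, Lonrf3, a ring finger protein, Tspan4, a tetraspanin, and Fkbp5, a chaperone induced by glucocorticoids, were rhythmic in both with no difference detected and peak gaps of 0.387, 0.768, 1.34 and 0.963 h. The difference passed with both marker covariates for Fkbp5 (adjusted p 0.0121), with the epididymis covariate for Tspan4 (0.0327), and with the spread shared over all 288 arrays for Usp2 (1.67e-05) and Lonrf3 (0.00310).

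Rgs16, a brake on G protein signalling, was the largest liver-only wave named outside the lists. It ran from 7.30 (CT46) to 11.48 (CT54), median 8.17, in liver, and from 6.39 (CT64) to 6.88 (CT34), median 6.67, in white adipose. No white adipose array reached the lowest liver array. The wave was 8.13-fold at CT8.97 in liver (interval 5.12 to 12.9) and 1.1-fold in white adipose (interval 1.0 to 1.2; adjusted p 1.88e-07). Aqp8, a water channel, Nat8f5, an acetyltransferase, Hspb1, a small heat shock protein, and Ypel2 had liver waves of 4.18, 3.77, 3.71 and 3.51-fold, against 1.35, 1.28, 1.32 and 1.11-fold in white adipose. The largest white adipose-only wave of the named genes was that of Asb12, a member of the ankyrin and SOCS box family, which ran from 5.15 (CT48) to 5.43 (CT34), median 5.27, in liver, and from 5.68 (CT58) to 9.15 (CT46), median 7.88, in white adipose. All 24 liver arrays lay below all 24 of white adipose. It had 1.04-fold in liver (interval 1.0 to 1.1) and 7.10-fold at CT21.6 in white adipose (interval 4.89 to 10.3; adjusted p 1.0e-09), and 5.96-fold in white adipose with both marker covariates. Its liver arrays all lay below the median gene, where a flat wave and a lack of signal cannot be told apart, and white adipose alone took it past the choice of bright genes. Alkal2, a ligand of the ALK receptor, ran from 5.97 (CT42) to 6.47 (CT34), median 6.12, in liver, and from 6.61 (CT56) to 8.64 (CT20), median 7.65, in white adipose, also without overlap. It had 1.13-fold in liver and 2.78-fold at CT23.4 in white adipose (adjusted p 1.0e-09), and the limit given for Asb12 holds for its liver arrays. St6galnac5, a sialyltransferase, Peg10, a gene derived from a retrotransposon, and Rasd1, a small GTPase induced by dexamethasone, had liver waves of 1.1, 1.16 and 1.04-fold, against 2.31, 2.30 and 2.12-fold in white adipose, and their mean liver levels lay below the median gene as well. In white adipose the same held for the liver-only genes Rgs16, Aqp8 and Nat8f5.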

How the data were processed

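Total RNA of each organ and time was measured on Affymetrix Mouse Gene arrays, 1 array per pool of 3 mice. The deposited values are probe set intensities on a linear scale from 6.9 to 45307.8, for which the submitters' processing notes name Affymetrix Expression Console and GCRMA, with no version. Array medians were 97.25 to 106.6 in liver and 96.5 to 105.3 in white adipose, and log2 of the deposited intensity was used without further normalization. Of 35556 probe sets 21789 had 1 gene symbol, and the probe set with the highest mean over all arrays stood for each of 19938 genes.

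With limma 3.58.1 in R 4.3.3, a mean and a 24 h cosine and sine coefficient were fitted per gene, with a prior variance that follows the mean. The wave was tested within each tissue, and the difference of both coefficients in 1 fit of 48 arrays without a block, each by a moderated F test with Benjamini-Hochberg adjustment over all genes. The fold is peak over trough of the fitted wave, with delta-method 95% intervals that end at 1, and peaks are given modulo 24 h. The procedure was tested on simulated data.

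Arrays of both tissues share circadian times, but nothing in the labels says that they share mice. Residuals at the same time correlated between the tissues with r from -0.255 to 0.303 (median 0.00622, over 0.1 in 6 of 24 times), so time was not taken to pair the arrays. Nothing says that replicate pools exist, and p-values rest on the spread of pools around the wave.

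The members and lists were chosen with earlier results of these data known. Named genes are all measured clock genes, up to 2 members per list and class with the largest fold, and the 5 other genes per class with the largest fold among bright genes whose single-day peaks lay within 4 h. Marker covariates were added after the data were seen. Promoters came from RefSeq (GRCm38.p6).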

Additional observations from a re-analysis of the deposited data

Results flagged for a closer look

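The rhythm differed between liver and white adipose, by the test of the coefficients themselves, in 2255 of all genes and in 65 list members. Among the named clock genes rhythmic in both tissues the adjusted p of that difference was 0.0431 for Arntl, 0.000151 for Cry1 and 0.000108 for Hlf. In fatty acid and cholesterol synthesis it was 0.00375 for Thrsp, 4.2e-06 for Acacb, 0.0148 for Idi1, 6.7e-05 for Fdft1 and 0.0450 for Hmgcs1. In triglyceride synthesis, droplets and lipoproteins it was 0.0131 for Gpat4, 0.000387 for Dgat2, 0.00167 for Lpin1, 0.00272 for Pnpla3, 0.00149 for Lipe and 0.00174 for Angptl4. In glucose metabolism and insulin signalling it was 0.00148 for Pfkfb3, 3.15e-05 for Gys2, 0.0189 for Slc2a9, 0.000335 for Pdhb, 0.00203 for Irs2 and 0.000681 for Akt2. Outside the lists it was 3.36e-07 for Osgin1, 0.00218 for Fmo2, 9.8e-06 for Fbxo21, 4.82e-06 for Esr1, 0.00152 for Slc4a4, 0.00267 for Nrg4, 0.00460 for Wee1, 0.0176 for Rnf125, 0.0493 for Gdap10 and 0.0244 for Acot4.

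A further 13767 probe sets had no symbol or several and entered no comparison above. Of these 1458 were rhythmic in liver, 51 in white adipose, and 397 differed between the tissues (2.88%).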

How the results depend on the processing

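In all, 22 alternatives were run. Array weights, quantile normalization, the filter on dim genes, the mean of probe sets, both other priors, a 2 h or 4 h rule, epididymis markers or both marker means as covariates, and leaving out liver CT34 and white adipose CT64 kept each count they bear on within 1.5 times. Other alternatives moved counts. The 0.01 threshold, the fold minimum and the 6 h rule are stricter by construction. Single days hold fewer arrays. Leaving out the arrays high in epididymis markers brings fewer arrays, times of the cycle with no array, and less epididymis RNA, and these cannot be told apart. Ranks within a tissue give each gene the same spread in both tissues, so differences in wave size are largely removed by construction. Beyond this the cause was not tested for ranks, nor for single days, the shared spread, the straight line and the hepatocyte covariate. With an adjusted p of 0.01, all genes gave 3508 rhythmic in liver, 463 in white adipose, 1221 differences, 51 shifted, 881 liver-only, 128 white adipose-only and 142 in both without difference, and the lists 3 shifted. The first day alone gave 1145, 83, 348, 4, 255, 22 and 32 in that order, and the lists 16 differences, 0 shifted and 13 liver-only. The second day alone gave 2914, 308, 965, 36, 611, 146 and 80, and the lists 4 shifted and 21 liver-only. Spread shared over all 288 arrays gave 4470 rhythmic in white adipose, 5320 differences, 765 shifted, 2551 liver-only, 1395 white adipose-only and 700 in both without difference, and the lists 104 differences and 32 shifted. Ranks gave 569 rhythmic in white adipose, 1213 differences, 64 shifted, 933 liver-only and 56 white adipose-only, and the lists 42 differences and 3 shifted. A fold of at least 1.2 left 3224 rhythmic in liver and 110 shifted. A straight line in time left 116 shifted, 10 of them in the lists, and a 6 h rule left 84 and 9. Hepatocyte markers as a covariate left 583 rhythmic in white adipose, 99 shifted, 160 white adipose-only, 180 in both without difference and 9 shifted in the lists. Without the white adipose arrays high in epididymis markers, 114 were rhythmic in white adipose, 14 shifted, 42 white adipose-only, 42 in both without difference and 0 shifted in the lists.

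Circadian time as a replicate block gave 1988 differences, 168 shifted, 1345 liver-only, 258 white adipose-only and 288 in both without difference, and in the lists 65, 17 and 34 for differences, shifted and liver-only. It ended the call of Gdap10 (adjusted p 0.0551) and of no other named gene, while the difference passed for Per2 (0.0343), Pmvk (0.0351), Ppp1r3b (0.0255) and Tspan4 (0.0315).

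Of the 99 named genes, 71 had a passing difference, and 6 of them (Alkal2, Asb12, Gys2, Insig2, Osgin1 and Ppard) kept it in each of the 17 alternatives run for single genes. The first day alone ended 46 of the calls, ranks 38 besides that of Wee1, the second day alone 30, leaving out the arrays high in epididymis markers 14 and quantile normalization 7. Of the 28 named genes without a passing difference, the spread shared over all 288 arrays gave one to 11, time as a block to 4, and quantile normalization, the filter on dim genes and the epididymis covariate to 3 each, and 5 other alternatives to 1 each. The 14 calls ended by leaving out the arrays high in epididymis markers were Arntl, Hmgcs1, Mvd, Mvk, Agpat2, Pnpla3, Ppp1r3d, Slc2a9, Dlat, Trib3, Nrg4, Wee1, Rnf125 and Gdap10. Under ranks the call of Wee1 ended too, and the direction of its difference reversed (adjusted p 0.726).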
